A study of Arabidopsis thaliana with 3 samples.

Results

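PDC2, AT4G17260 and NDB2 are 3 Arabidopsis thaliana genes for enzymes that consume pyruvate or NADH when respiration is short of oxygen or under stress. They were taken by symbol or locus code from the probe sets that name 1 gene, and each had exactly 1 such probe set (PDC2 at locus AT5G54960 and NDB2 at locus AT4G05020). They are 3 of 13286 genes with such a probe set and a locus code. All 3 passed the filter on low signals on every array.

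Pyruvate decarboxylase, the product of PDC2, turns pyruvate into acetaldehyde, which alcohol dehydrogenase then reduces to ethanol. Lactate dehydrogenase, encoded by AT4G17260, reduces pyruvate to lactate. Both routes return NADH to NAD+ without oxygen and so let glycolysis continue, and in leaves they are best known from flooding and other low-oxygen conditions. NDB2 sits on the outer face of the inner mitochondrial membrane and passes electrons from cytosolic NADH to ubiquinone without pumping protons, bypassing complex I; it is known for responding to stress together with the alternative oxidase.

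The plants were Col-0, the reference accession, and RNA came from whole aerial parts hybridized to ATH1 arrays, on which short probes for a transcript are read as a set. They grew at 20 °C with 9 h of light and 15 h of dark and were then held at 4 °C for 11 days, so the plants of all 3 groups had been cold-acclimated. For all 3 groups the labels also give 2 days of stratification and growth stage 1.14. The cold-acclimated array is the control and came from plants harvested 5 h into the light period. The plants of the other arrays were frozen for 20 h, starting as a light period ended, at a temperature the labels give as 6.0 °C with no sign. They then recovered at 20 °C in darkness, for 3 h or for 24 h. From this schedule, the recovery arrays lie 23 h and 44 h after the last light period, and at hours 8 and 5 of the daily cycle, against hour 5 for the control. Freezing, warmth, darkness and, at 3 h, time of day therefore cannot be told apart. Nor can longer recovery and longer darkness, between the recovery arrays.

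There was 1 array per group, and the titles number all 3 as replicate 3. A ratio between groups thus compares 2 arrays, has no replicate check, and was given no test. The values are scaled MAS5 signals, a measure of probe brightness per probe set, with a floor at 16.1 below which signals were not distinguished. The error beside each ratio is the SD of one probe set's log2 ratio, estimated from 72 genes that each have a pair of probe sets. It covers probe error only, not the spread between plants. It was 0.34 for 3 h over control, 0.39 for 24 h over control and 0.35 for 24 h over 3 h. Over the 10 of these genes with mean signals of at least 100 on both probe sets, nearer to the signals of the 3 genes, it was 0.25, 0.37 and 0.21.

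Leaf markers were present, as a sample of aerial parts should have. All 4 annotated leaf markers of the 8 written lay far above the floor on each array. In the order cold-acclimated, 3 h and 24 h, LHCB4.1 was at 3243, 2855 and 4298, LHCB4.2 at 1965, 1330 and 4152, PORB at 2168, 1593 and 2457, and RCA at 3216, 2990 and 4068. Their median log2 ratio was -0.31 at 3 h, 0.37 at 24 h and 0.61 for 24 h over 3 h. With scaling to the hybridization controls described next, these medians were -1.05, -0.14 and 0.83. As reported, each leaf marker was brightest at 24 h, where the 3 genes of interest were dimmest. With that other scaling only LHCB4.2 was. LHCB4.1, PORB and RCA were then brightest on the cold-acclimated array, with log2 ratios at 24 h of -0.10, -0.33 and -0.17. The part of the leaf markers' pattern in the results was not tested. The 3 measured reference genes, chosen for stable expression, were AT4G34270 (93.1, 76.4 and 92.6), PEX4 (217.3, 229.3 and 214.1) and AT2G28390 (122.8, 118.1 and 141.0). The only annotated root marker of 5, EXPA7, lay near the floor at 20.5, 22.5 and 8.38, and no flower marker of 3 was on the annotation. The bacterial hybridization controls stood above their control-array level by 1.66-fold on the 3 h array and by 1.42-fold on the 24 h array. Their part in the results below was not tested, but ratios scaled to them are given where they differ.

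PDC2 gave signals of 458.5 (cold-acclimated), 328.9 (3 h) and 218.3 (24 h). Its signal was highest before freezing and lowest after a day of recovery, and the 3 h array lay between. The 3 h value was 1.39-fold below the control (log2 ratio -0.48 ± 0.34), and 20.2% of the 16769 measured probe sets had a lower ratio. That is inside 2-fold, and it is 1.42 times the probe error. At 24 h the signal was 0.476 times the control (-1.07 ± 0.39), with 7.47% of 16965 probe sets lower still. Between the recovery arrays the drop was 1.51-fold (-0.59 ± 0.35). In these whole aerial parts, fewer cells of a type and less RNA per cell cannot be told apart.

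AT4G17260, the lactate dehydrogenase gene, gave 233.5 (cold-acclimated), 349.0 (3 h) and 104.2 (24 h). It was brightest at 3 h, 1.49-fold above the control and so within 2-fold (0.58 ± 0.34; 11.2% of probe sets had a higher ratio). Scaled to the hybridization controls this ratio was -0.16, and the cold-acclimated array was the brightest, as for PDC2. At 24 h it was 2.24-fold below the control (-1.16 ± 0.39; 6.12% lower still). From 3 h to 24 h its signal differed by 3.35-fold (-1.74 ± 0.35), which is 4.96 times the probe error, and 2.55% of 16968 probe sets had a lower ratio.

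NDB2 gave 303.4 (cold-acclimated), 662.0 (3 h) and 144.8 (24 h). It had the widest range of the 3 genes, with the brightest array 4.57-fold above the dimmest. The 3 h signal was 2.18-fold above the control (1.13 ± 0.34), and 5.22% of probe sets had a higher ratio. The 24 h signal was 2.09-fold below the control (-1.07 ± 0.39). Between 3 h and 24 h the log2 ratio was -2.19 ± 0.35, and 1.31% of probe sets had a lower one.

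**Figure D1:**
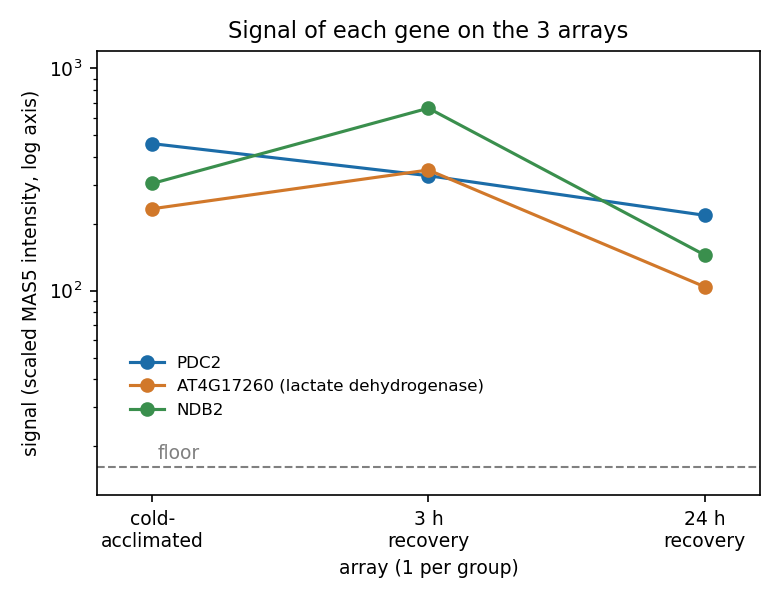
Scaled MAS5 signal (log axis) of PDC2, AT4G17260 and NDB2 on the cold-acclimated, 3 h and 24 h arrays, 1 array per point; the dashed line is the floor at 16.1. PDC2 steps down from 458.5 to 328.9 and 218.3, while AT4G17260 and NDB2 peak at 3 h (349.0 and 662.0) and are lowest at 24 h; with scaling to the hybridization controls AT4G17260 would be highest on the cold-acclimated array. Heights of different probe sets are not comparable.

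All 3 genes were thus dimmest at 24 h, and all 3 were at least 2-fold lower there than on the control. Of all measured probe sets, 8.47% were at least 2-fold lower at 24 h. The 3 log2 ratios at 24 h lay within 0.10 of each other, well inside the error of a difference between genes (0.55). Since the genes were picked with these results known, the shared direction is a description and not support for a common response.

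At 3 h the genes diverged. NDB2 was the only one of the 3 past 2-fold, against a background of 6.11% of probe sets higher by that much and 3.95% lower. The log2 ratio of PDC2 minus that of NDB2 was -1.605, or 3.37 times the error of a difference between genes (0.48), and minus that of AT4G17260 it was -1.059, or 2.22 times that error. AT4G17260 and NDB2 differed by 0.55, or 1.15 times that error. Between the recovery arrays AT4G17260 and NDB2 were at least 2-fold lower at 24 h, as were 8.67% of probe sets, while PDC2 was within 2-fold. The ratio of AT4G17260 exceeded that of NDB2 by 0.45 there, which is 0.90 times the error of a difference. This error covers probe error only, not the spread between plants. The genes were also picked with these results known, so the multiples describe these arrays and test nothing.

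**Figure D2:**
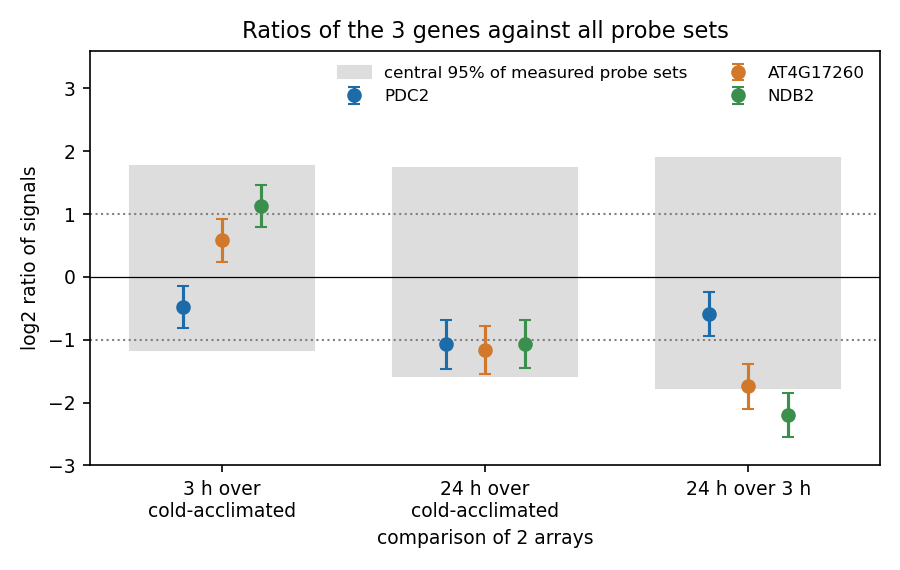
Log2 ratio of signals (vertical axis) for the 3 genes in each comparison of 2 arrays, with error bars of 1 SD of probe error; grey boxes span the central 95% of measured probe sets and dotted lines mark 2-fold. The 3 points coincide near -1.1 at 24 h over control and spread from -0.48 to 1.13 at 3 h; NDB2 alone lies outside the grey box, at 24 h over 3 h.

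The size of these ratios, and the direction of that of AT4G17260 at 3 h, depend on what the arrays are scaled to. Scaled to the bacterial hybridization controls, the 3 h log2 ratio of NDB2 was 0.39, within 2-fold, that of AT4G17260 was -0.16, and that of PDC2 was -1.21, past 2-fold. It lowers each log2 ratio over the control by 0.73 (3 h) or 0.51 (24 h array) where the floor plays no part, for the other genes named here as well. The same scaling moved the median of all measured probe sets at 3 h from -0.13 to -0.82. Relative to that median, the 3 h values were -0.34, 0.71 and 1.26 for PDC2, AT4G17260 and NDB2 as reported, and -0.39, 0.67 and 1.21 with the controls. At 24 h all 3 genes were past 2-fold lower with this scaling too, at -1.58, -1.67 and -1.58 in the same order. With a pseudocount in place of the floor, NDB2 was at -0.99 at 24 h, just within 2-fold.

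**Figure D3:**
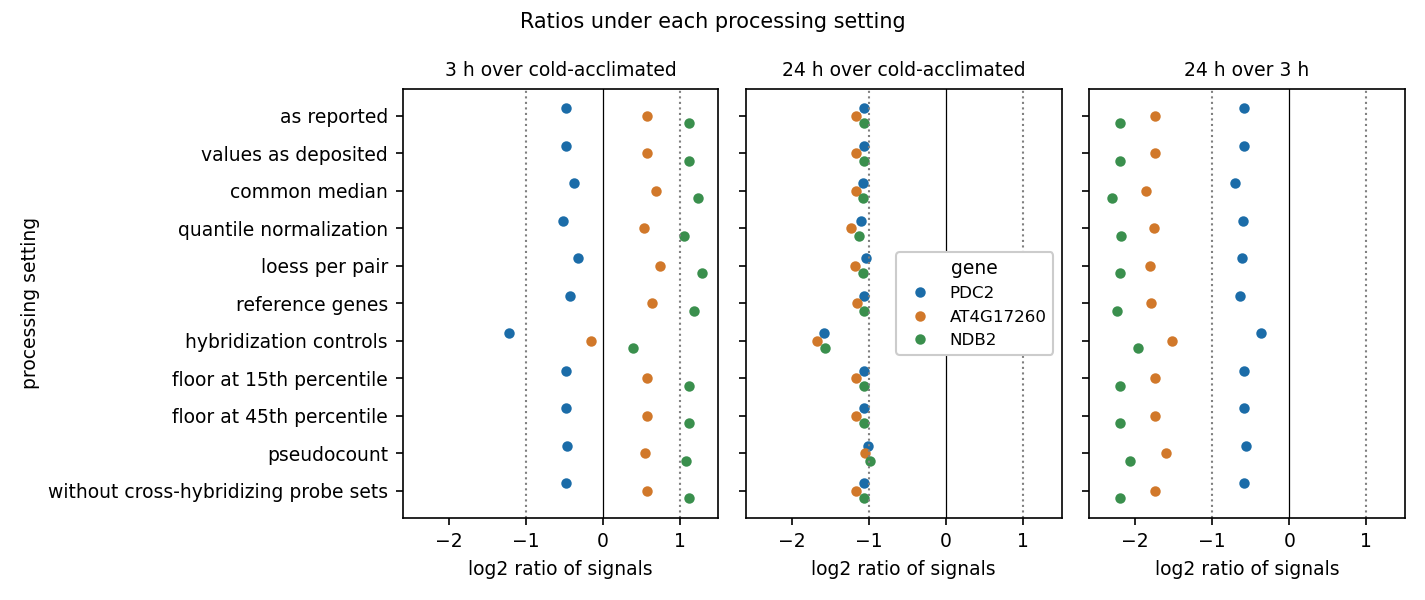
Log2 ratio of signals (horizontal axis) for the 3 genes under the reported processing and each of 10 alternatives (vertical axis), 1 panel per comparison; dotted lines mark 2-fold. Most settings shift the 3 genes alike or leave them as they are, so the order of the genes is no sign of stability; scaling to the hybridization controls shifts all 3 to the left in both comparisons with the cold-acclimated array, NDB2 at 3 h to 0.39.

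NDB2 belongs to a small family of alternative NAD(P)H dehydrogenases, and the family did not move as a block. Of 7 members, 5 were on the annotation and 4 were measured. NDC1, the member of the family shared with plastids, was at 135.1, 213.2 and 91.2 on the cold-acclimated, 3 h and 24 h arrays. As reported, it was brightest at 3 h and dimmest at 24 h, with log2 ratios to the control of 0.66 and -0.57, each within 2-fold. With scaling to the hybridization controls its 3 h ratio was -0.08, so that it was no longer brightest at 3 h, whereas NDB2 still was. The 24 h ratio of NDC1 was then -1.08, past 2-fold lower, as that of NDB2 was. NDB1, an external enzyme that prefers NADPH, was at 125.0, 69.8 and 67.3, as reported lower on both recovery arrays by less than 2-fold (-0.84 and -0.89). With that scaling it was at -1.58 and -1.40, past 2-fold lower on both. NDB3 was at 26.1, 28.5 and 45.7, brightest at 24 h (0.81, or 0.30 with that scaling). NDB4 was below the floor on all 3 arrays. The median log2 ratio of the 4 was 0.39 at 3 h (-0.34 with scaling to the hybridization controls) and -0.73 at 24 h (-1.24), against -0.13 and 0.01 over all measured probe sets.

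The alternative oxidases, which accept the electrons that NDB2 delivers, and the uncoupling carriers had no gene on the annotation and are not analysed here. Genes known to respond to mitochondrial dysfunction, a group in which NDB2 is itself a member, had 10 of 18 on the annotation and 8 measured. As reported, NDB2 was the only one past 2-fold, 1 of 8 at each time, which is near the share of all probe sets (6.11% higher at 3 h and 8.47% lower at 24 h). The highest after it at 3 h was AT2G41730, at 58.2, 106.4 and 107.2 (0.87 at 3 h and 0.88 at 24 h), measured by a probe set whose ID marks cross-hybridization. AT1G05060 was second highest at 24 h, at 53.3, 45.6 and 78.6. The lowest were GSTU25, a glutathione transferase, at 3 h (-0.34, with 12.8, below the floor, against 20.5) and AT5G09570 at 24 h after NDB2 (-0.65, at 25.4 and 16.1, just under the floor). With scaling to the hybridization controls AT5G09570 was at -1.09 at 24 h.

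Complex I, which NDB2 bypasses, differed little between arrays as reported. All 10 annotated nuclear genes of the 20 written were measured and, as reported, lay within 2-fold in each comparison. Their medians were -0.12 at 3 h and 0.07 at 24 h (-0.86 and -0.44 with scaling to the hybridization controls), and their log2 ratios ran from -0.34 to 0.06 at 3 h and from -0.32 to 0.45 at 24 h. With that scaling AT5G52840 was past 2-fold lower at 3 h (-1.08). FRO1, a complex I subunit, was the highest at 24 h, at 451.9 on the control and 618.6 (0.45, or -0.06 with that scaling).

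Of complexes II to IV and cytochrome c, 12 of 20 genes were measured. As reported, the cytochrome c gene CYTC-2 was the only one past 2-fold at 3 h, and 1 of 12 is near the 6.11% of all probe sets that were. It was at 169.6, 394.0 and 147.7 (log2 ratio 1.22 at 3 h and -0.20 at 24 h), or 0.48 at 3 h with scaling to the hybridization controls. Its 3 h value was close to that of NDB2. As reported, CYTC-2 was back near the control at 24 h (log2 ratio -0.71 with that scaling), where NDB2 was 2.09-fold lower (-1.58 with it). Its sister gene CYTC-1 was at 1457, 1233 and 1257. The succinate dehydrogenase gene SDH2-2 was the second highest at 3 h (0.23). The lowest were AT1G51980 (-0.34, or -1.07 with that scaling) and MPPBETA (-0.26, or -0.99), which encode peptidase subunits of complex III.

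**Figure D4:**
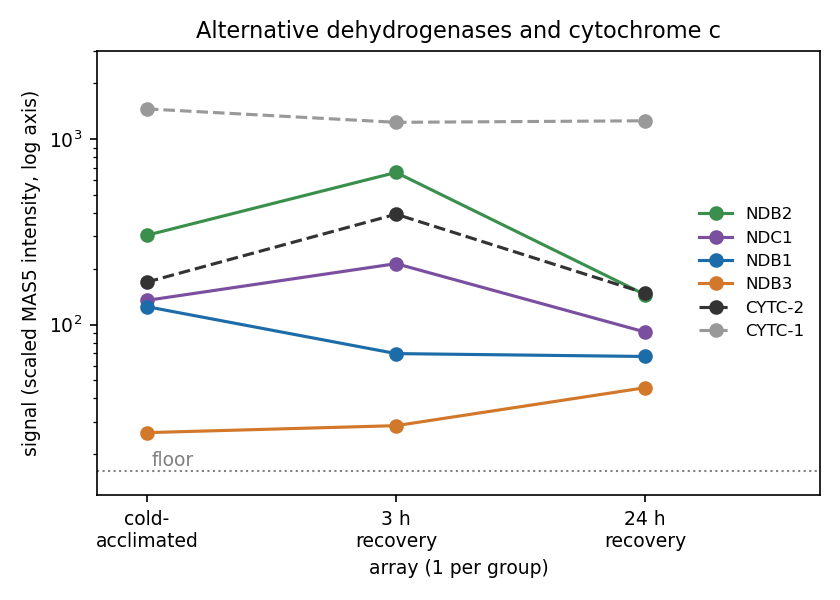
Scaled MAS5 signal (log axis) of the 4 measured alternative NAD(P)H dehydrogenase genes (solid lines) and the cytochrome c genes (dashed lines) on the 3 arrays; the dotted line is the floor at 16.1. NDB2, NDC1 and CYTC-2 peak at 3 h (662.0, 213.2 and 394.0; NDC1 not with scaling to the hybridization controls), NDB1 is lower on both recovery arrays and NDB3 is highest at 24 h; heights of different probe sets are not comparable.

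In the list written for fermentation, PDC2 and AT4G17260 were the 2 annotated of 11 genes. The other pyruvate decarboxylases and alcohol dehydrogenase are not analysed here, nor are the sucrose synthases, which are not themselves fermentation enzymes. The acetaldehyde that PDC2 makes can also be oxidized to acetate and built into acetyl-CoA. Of the 5 genes written for that route 2 were measured. ALDH2C4, an aldehyde dehydrogenase listed for that route, was at 654.5, 524.7 and 327.7, so it stepped down across the arrays as PDC2 did (log2 ratios to the control -0.32 and -0.998, just within 2-fold). Whether ALDH2C4 acts on the acetaldehyde from PDC2 was not tested, so the like pattern is no sign of a link between them. ACS, acetyl-CoA synthetase, was at 176.3, 204.4 and 250.3, with log2 ratios of 0.21 and 0.51 that became -0.52 and -0.003 with scaling to the hybridization controls.

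Glycolysis supplies the pyruvate for both fermentation enzymes. Of 28 genes listed under cytosolic glycolysis 10 were measured. The listing does not show that each of them supplies pyruvate, PPDK below included, and the direction in which the enzymes ran was not tested. At 3 h none was past 2-fold, with a median of -0.14 (-0.88 with scaling to the hybridization controls), a highest ratio of 0.19 (AT5G56350, listed as pyruvate kinase; -0.54 with that scaling) and a lowest of -0.57 (AT1G20950). AT5G42740, listed as glucose-6-phosphate isomerase, was the second highest at 0.18, and PPDK, pyruvate phosphate dikinase, the second lowest at -0.46. These counts depend on the scaling. With the hybridization controls AT1G20950 (-1.30), PPDK (-1.20), AT5G08570 (-1.13) and AT1G12000 (-1.02) were at least 2-fold lower at 3 h. At 24 h 2 of 10 were at least 2-fold lower, beside 8.47% of all measured probe sets, and the median was -0.34 (-0.85 with that scaling). These were AT5G08570, listed as pyruvate kinase, at 522.0, 397.4 and 157.5 (-1.73), and AT1G20950, listed as a subunit of the pyrophosphate-dependent phosphofructokinase, at 381.1, 256.9 and 190.2 (-1.003). Both stepped down over the 3 arrays, as PDC2 did. With that scaling AT1G12000 (-1.40) and AT5G56350 (-1.06) were also at least 2-fold lower at 24 h. PPDK was the highest at 24 h, at 344.3, 249.7 and 543.3 (0.66), followed by GAPC2, glyceraldehyde-3-phosphate dehydrogenase (0.27, or -0.23 with that scaling). Between the recovery arrays PPDK was the 1 gene at least 2-fold higher at 24 h (1.12) and AT5G08570 the 1 at least 2-fold lower (-1.34), which is at the background of 10.7% higher and 8.67% lower.

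The pyruvate dehydrogenase complex competes with PDC2 and lactate dehydrogenase for pyruvate. As reported, its 4 measured genes of 9 lay within 2-fold in each comparison, with medians of -0.12 at 3 h and -0.50 at 24 h (-0.85 and -1.01 with scaling to the hybridization controls). MAB1, the E1 beta subunit, was at 693.1, 675.3 and 506.2. The E2 genes were LTA3 at 168.0, 146.3 and 158.9, AT3G13930 at 370.8, 385.5 and 254.6, and AT1G54220 at 150.1, 130.2 and 76.8. AT1G54220 was the lowest of the 4 at 24 h (-0.97). With scaling to the hybridization controls AT1G54220 (-1.48) and AT3G13930 (-1.05) were past 2-fold lower at 24 h.

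Other genes known to be raised by low oxygen were mixed. Of 47 written, 26 were on the annotation. At 3 h 18 were measured, of which 6 were at least 2-fold higher (6.11% of all probe sets were) and 1 lower, with a median of 0.35 (-0.13 with scaling to the hybridization controls). These 3 h counts depend on the scaling. With the hybridization controls only CML38 of the 6 stayed past 2-fold (4.73), and the next of them, AT4G10270, was at 0.58. At least 2-fold lower with that scaling were AT1G74940 (-1.78), AT4G17670 (-1.68), AT3G03270 (-1.19) and AT5G42200 (-1.10). At 24 h 23 were measured, 8 higher (8.56% of all) and 1 lower, with a median of 0.57 (0.26 with that scaling, and 1.22 if the floor was set from the 15th percentile). The 24 h numbers include 9 genes with a signal below the floor on 1 array, which entered only because the other array was above it, so these counts describe the list and support nothing. Over the 14 above the floor on both arrays, 4 were at least 2-fold higher and 1 lower. The calmodulin-like gene CML38 was the highest at 3 h, at 34.1, 1507 and 117.4, followed by AT4G10270 at 90.2, 223.6 and 125.4. Lowest at 3 h were AT1G74940, at 119.1, 57.6 and 156.1, and AT4G17670, at 163.6, 85.1 and 69.0. At 24 h AT4G27450 was highest, at 32.7, 42.0 and 1173, and AT4G39675, below the floor on the control and 3 h arrays, was at least 5.13-fold higher with a signal of 82.8. AT4G17670 (-1.24) and AT5G44730 (-0.69) were the lowest at 24 h, next to -1.07 for PDC2 and -1.16 for AT4G17260. HRA1 (AT3G10040), a repressor of the low-oxygen response, was at 17.7, 35.8 and 19.4, so it was brightest at 3 h.

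**Figure D5:**
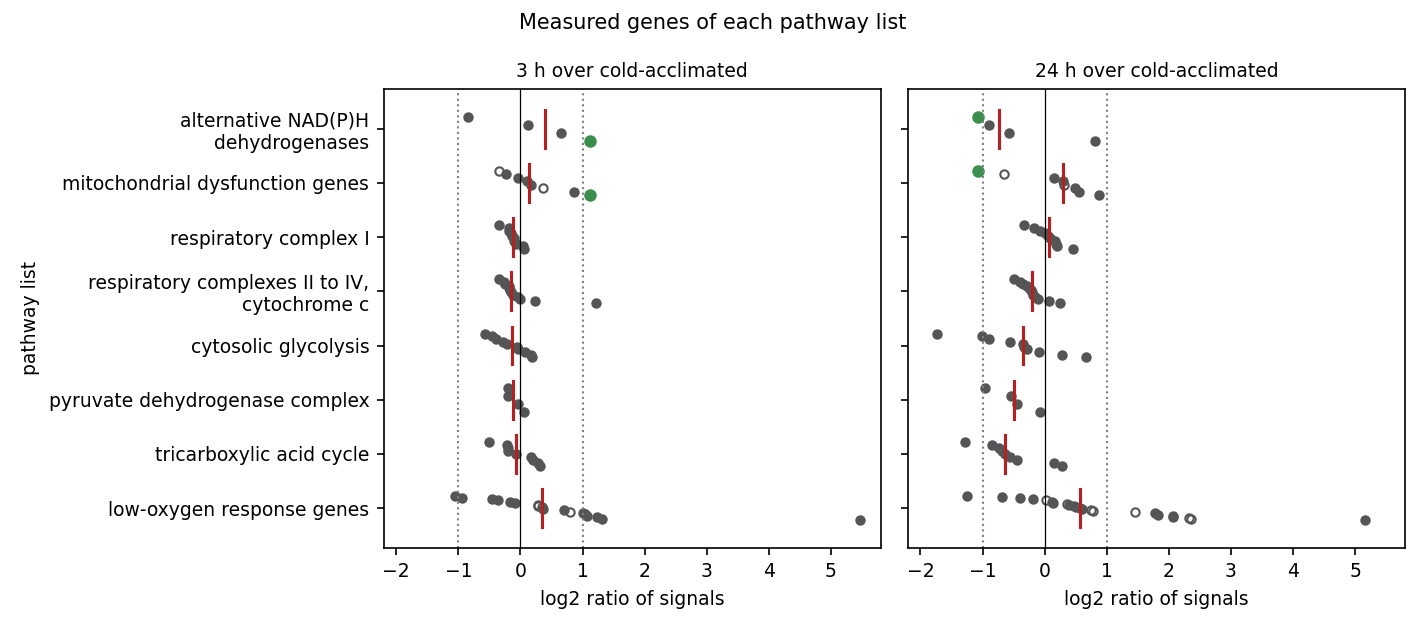
Log2 ratio of signals (horizontal axis) of each measured gene in 8 pathway lists (vertical axis) at 3 h and at 24 h over the cold-acclimated array; filled points are above the floor on both arrays, open points below it on 1, green is NDB2, red bars are list medians and dotted lines mark 2-fold. Complex I genes cluster around 0 in both panels, NDB2 is the highest of its lists at 3 h and the lowest at 24 h, and the low-oxygen list runs up to 5.46 and 5.16.

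The genes whose pattern lay nearest to each of the 3 were found by the Euclidean distance over the log2 ratios of 3 h and 24 h to the control, among 7805 probe sets. Nearest to PDC2 were AT5G15980 (distance 0.010; 74.3, 53.0 and 35.3), AT5G19250 (0.023) and AT3G16560 (0.036). Its pattern was a common one, with 220 probe sets within 0.25. AT4G17260 had 10 within that distance, the nearest being AT4G33985 (0.088; 64.3, 94.1 and 27.1), SAT32 (0.132; 225.5, 329.2 and 109.9) and AT2G22900 (0.139). NDB2 had 3, which were AT3G09440 (0.171; 1245, 2549 and 537.8), CCT2 (0.239; 146.7, 296.2 and 60.5) and AT4G16260 (0.244; 65.3, 156.6 and 35.9). These distances rest on 3 arrays and on a probe error of 0.34 and 0.39 per ratio, so a different array could change which genes are nearest.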

How the data were processed

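The authors deposited 1 linear signal intensity for each probe set and array, made with MAS5, per the submitters' processing notes; its version and settings, and a genome build, are not given in the sources used here. All 22810 probe sets of 3 arrays were read. Each array was multiplied to a 2% trimmed mean of 100, which hardly changed it, as the trimmed means were 100.0 as deposited. Signals below the 30th percentile of the 22746 Arabidopsis probe sets (16.1) were set to that floor before the log2 ratio was taken, and a probe set below it on both arrays was not counted as measured. An array's precision is limited by the number of arrays, 1 per group, so no test was run. Detection calls were not used here.

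The platform's annotation put a single gene on 13513 Arabidopsis probe sets and several on 503, and left 8730 unnamed. Of the single-gene ones 13436 were matched by gene ID to a locus code in the RefSeq table of TAIR10.1, from which names were taken; no coordinates are printed, since the values name no build. A gene with several probe sets was represented by the brightest. The 3 genes and the 17 lists (225 places, by locus code) were chosen with earlier results of these data known. Named from a list were all measured genes where there were up to 4, and otherwise some of the 2 highest and 2 lowest ratios of each comparison, not all of which are printed; HRA1, and CYTC-1 beside CYTC-2, were chosen after values were seen, as was the error over bright probe sets. Nearest patterns were the 3 smallest distances among probe sets above the floor on all arrays, without cross-hybridizing IDs. Alternatives were the values as deposited, 5 other scalings, 2 other floors, a pseudocount as large as the floor, and dropping the probe sets with cross-hybridizing IDs. The ratio code was tested on simulated data. Software was Python 3.11.15, numpy 2.4.6, pandas 2.3.3, scipy 1.17.1, statsmodels 0.14.6 and matplotlib 3.10.9.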

Additional observations from a re-analysis of the deposited data

How the results depend on the processing

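Under 9 of the 10 alternatives, each of the 9 log2 ratios of PDC2, AT4G17260 and NDB2 moved by less than the probe error. Some of these alternatives could not move them. The 3 genes lay above both other floors, their probe sets have no cross-hybridizing IDs, and the deposited values hardly differ from the scaled ones. Able to move the ratios were a common median, quantile normalization, loess, scaling to the reference genes and the pseudocount. Under these, each of the 9 ratios stayed within the probe error of its reported value. Scaling to the hybridization controls moved 6 of them, to -1.21, -0.16 and 0.39 at 3 h over control and to -1.58, -1.67 and -1.58 at 24 h over control, for PDC2, AT4G17260 and NDB2 in turn; the cause of the difference between the scalings was not tested. The counts over all probe sets moved more. With that scaling 459 were at least 2-fold higher and 5866 lower at 3 h, and 679 higher and 3773 lower at 24 h. With the floor at the 15th percentile, 1659 were higher and 1446 lower at 3 h, 2234 higher and 2195 lower at 24 h, and 2258 lower at 24 h than at 3 h. At 3 h, the 663 lower became 434 after the loess correction, 403 under the floor from the 45th percentile, and 392 if a pseudocount was used. The share of 2-fold differences that were higher was 60.7% at 3 h as reported, 73.9% after loess and 7.26% with the hybridization controls; it was 50.3% and 15.3% at 24 h, and 55.2% and 71.6% between the recovery arrays. The median of all measured probe sets shifted by -0.69, -0.47 and 0.21 with the hybridization controls in the 3 comparisons. It shifted by 0.11 at 3 h and -0.11 between the recovery arrays with a common median, and by 0.14 at 3 h after loess. The low-oxygen list's median at 24 h was 1.22 with the floor at the 15th percentile, where more dim genes count. No paired analysis was possible because each group held 1 array.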

Other observations

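The tricarboxylic acid cycle, which takes up pyruvate carbon that is not fermented, had 9 measured genes of the 22 written. As reported, none was past 2-fold at 3 h, where the median log2 ratio was -0.07 (-0.80 with scaling to the hybridization controls). At 24 h 1 of 9 was at least 2-fold lower, beside 8.47% of all measured probe sets, and the median was -0.64 (-1.14 with that scaling). That gene was AT5G23250, listed as a succinyl-CoA ligase subunit, at 233.4, 203.0 and 96.3 on the cold-acclimated, 3 h and 24 h arrays. The 24 h count depends on the scaling. With the hybridization controls AT5G55070 (-1.36), AT3G55410 (-1.25), AT2G20420 (-1.20), AT5G08300 (-1.14) and IDH-VI (-1.06) were also at least 2-fold lower. AT3G55410, listed as 2-oxoglutarate dehydrogenase, was at 454.6, 566.2 and 272.0. As reported it was within 2-fold of the control at both times (0.32 and -0.74), against -0.42 and -1.25 with that scaling. AT5G65750, listed as the same enzyme, was at 86.8, 61.3 and 105.3 (-0.50 at 3 h and 0.28 at 24 h, or -1.24 and -0.23 with that scaling). The isocitrate dehydrogenase gene IDH-V lay within 2-fold of the control, at 480.8, 553.5 and 534.5, and its relative IDH-VI was at 144.4, 175.4 and 98.4.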
